A study of Helianthus annuus with 180 samples.

Results

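The S15a-like gene of cultivated sunflower, Ha412HOChr05g0204731, is 1 of the 46480 genes listed in each count table of the series, and it was followed by its identifier over all stem sides, times and days. The identifier places the gene on chromosome 5. The study's list of genes with different peak hours on the sides of field stems gives it the Arabidopsis match AT5G59850, a ribosomal protein of the S8 family to which S15a belongs, while the study's text names another S15a gene as its homolog. In that list 3 further sunflower genes carry the match AT5G59850: Ha412HOChr06g0263011, Ha412HOChr08g0354601 and Ha412HOChr11g0504831, called the other S8 family copies here. They were thus selected on the field libraries, and sunflower genes of the family outside that list were not analysed here. The study picked the S15a-like gene as an example of genes whose expression peaks at different hours on the east and west sides of field-grown stems. Its side difference and its phase in the field are therefore described here without a test. The field phases were measured without the chamber libraries, which were tested here. The study also showed this gene as higher on the shaded side in the chamber, and does not say whether that bore on its choice. The chamber p-values may therefore not be free of selection.

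Ribosomes translate messenger RNA into protein and consist of a small and a large subunit, each built from ribosomal RNA and a set of ribosomal proteins. S15a is a protein of the small subunit of the cytosolic ribosome, and its bacterial and organellar counterpart is called S8. In plants most cytosolic ribosomal proteins are encoded by small families of near-identical genes, and their transcripts are typically abundant in growing and dividing tissue. Plastids and mitochondria have ribosomes of their own, made with separate sets of proteins.

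All 180 libraries came from peels of the first internode of wild-type HA412-HO plants that were 2 weeks old, with peels of 2 plants pooled per library. In the phototropism experiment (108 libraries), chamber-grown plants were set in front of blue light from one direction at ZT3, where ZT counts hours after dawn, and the shaded and the lit side were collected at 9 times from ZT3 to ZT21 with 6 libraries per side and time. In the heliotropism experiment (72 libraries), plants that had been transplanted outdoors at 4 to 5 days of age and tracked the sun were sampled on the west and the east side every 4 hours over 2 days, with 3 libraries per side and sampling, or 6 per side and time of day when the days are combined. HA412-HO is an inbred line, so a single genotype is represented. In the chamber the study describes the blue light as continuous, so the late collections were not made in darkness.

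Libraries held 4485611 to 28394943 counts in the chamber (median 11119560) and 5074975 to 30834562 in the field (median 16615264). The S15a-like gene took 236 to 3585 of these counts per chamber library and 157 to 2381 per field library, which gives a counting error of 1.67 to 6.50% of its value in the chamber and 2.05 to 7.99% in the field. The coefficient of variation between libraries of a group was 15.8 to 37.7% in the chamber (median 23.9%) and 2.93 to 34.2% in the field (median 14.8%). The spread in the chamber was thus wider than the counting error in every group, while the smallest spread in the field, on the west side at ZT4, lay within the range of the counting error. Levels are given in CPM, the unit of counts scaled to a library of fixed size, after TMM scaling, which corrects for library composition. One field library stood apart: replicate 3 of the west side at ZT44 had a median correlation of 0.93 with the libraries of its group, against a median of 0.97 over all field libraries, and it was also the shallowest in the field. The side difference at ZT20, the ribosomal protein genes called at ZT20 and the difference of the acrophases are given with and without it. Other field values, such as means, the contrast of the days and correlations, include it.

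During the first hours of blue light the levels of the S15a-like gene on the shaded and the lit side overlapped. At ZT3 the lowest, median and highest values were 59.2, 100.2 and 130.0 CPM on the shaded side, against 56.4, 87.9 and 128.5 CPM on the lit side. At ZT4, 1 hour into the light, they were 58.5, 105.3 and 138.5 CPM in shaded peels and 64.6, 114.8 and 174.4 CPM in lit peels. At ZT5 they were 76.7, 101.9 and 128.2 CPM on the shaded side, against 54.8, 83.4 and 125.8 CPM on the lit side. The sides thus shared most of their range at these 3 times, and libraries with the same replicate number were often high or low together. At ZT4, for example, replicate 2 was the lowest library on both sides. The shaded library was higher in 4, 2 and 5 of 6 same-numbered pairs at ZT3, ZT4 and ZT5.

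From ZT7 the sides separated. At ZT7 the shaded libraries of the S15a-like gene held 151.9, 121.5, 95.8, 114.9, 130.0 and 191.1 CPM in replicates 1 to 6, against 67.4, 68.7, 34.5, 47.9, 64.6 and 88.9 CPM in the lit libraries. At ZT9 the shaded libraries held 135.7, 145.8, 135.5, 114.1, 139.2 and 192.1 CPM, against 81.2, 75.9, 56.3, 62.4, 47.3 and 66.0 CPM in the lit ones. At ZT12 they held 132.2, 217.0, 124.3, 125.1, 156.2 and 159.3 CPM on the shaded side, against 86.1, 97.4, 62.1, 61.1, 66.1 and 94.1 CPM on the lit side. Every shaded library lay above every lit library at each of these 3 times, a pattern found in 3.95% of the 32644 genes tested at ZT7, 5.26% at ZT9 and 2.84% at ZT12. Replicate 6 was the highest shaded library at ZT7 and ZT9, and replicate 2 was the highest at ZT12.

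The separation narrowed at ZT15 and had closed by ZT18. At ZT15 the lowest, median and highest values were 90.8, 106.7 and 162.6 CPM on the shaded side, against 57.8, 72.7 and 104.0 CPM on the lit side, so the ranges overlapped although the shaded library was the higher one in 6 of 6 same-numbered pairs. At ZT18 they were 61.3, 79.5 and 97.2 CPM in shaded peels and 59.2, 82.2 and 109.5 CPM in lit peels. At ZT21 they were 60.7, 91.7 and 121.4 CPM in shaded peels and 62.8, 89.2 and 110.7 CPM in lit peels. At ZT18 and ZT21 the sides covered nearly the same range, and the shaded library was higher in 3 and 4 of 6 pairs.

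**Figure D1:**
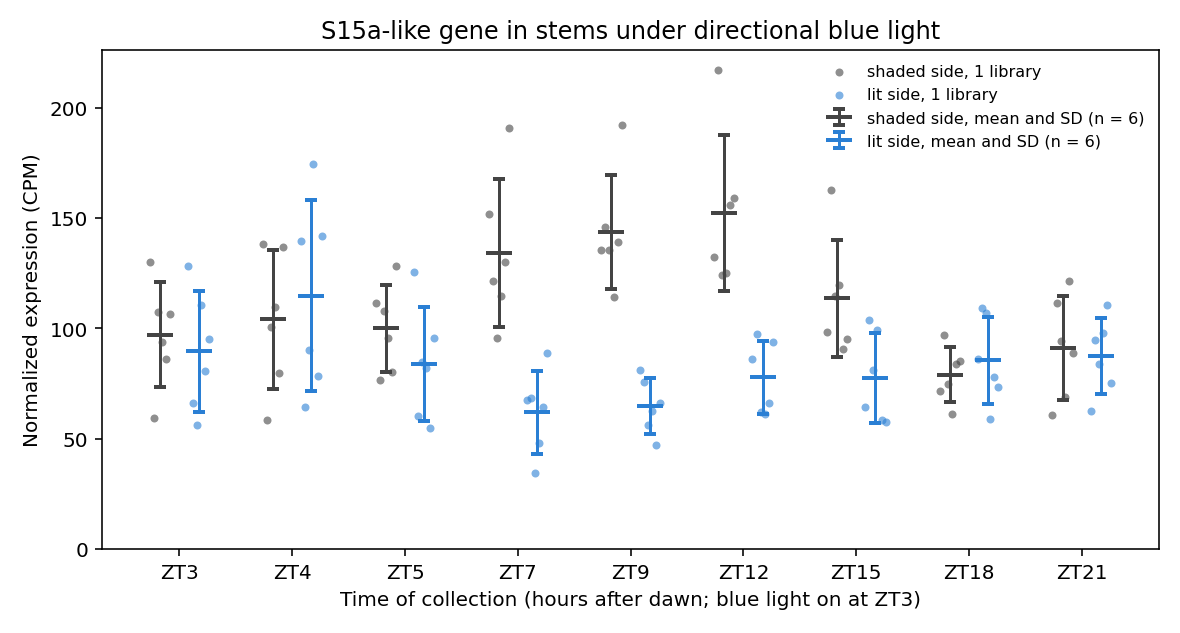
Level of the S15a-like gene (TMM-scaled CPM, linear axis from 0) in each of the 108 chamber libraries against the time of collection in hours after dawn, shaded side left of lit side, with the mean and SD of 6 libraries per side and time. Shaded and lit libraries do not overlap at ZT7, ZT9 and ZT12, where the shaded means are 134.2, 143.7 and 152.3 CPM and the lit means 62.0, 64.9 and 77.8 CPM.

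The question this design puts to the gene is whether and when its transcript differs across a bending stem. The mean level at ZT7 was 134.2 ± 33.4 CPM in shaded peels and 62.0 ± 18.8 CPM in lit peels (SD, n = 6 each), a log2 fold change of 1.11 ± 0.21 (SE, edgeR quasi-likelihood test, Benjamini-Hochberg adjusted p = 2.77e-05). At ZT9 it was 143.7 ± 25.97 CPM in shaded peels and 64.9 ± 12.5 CPM in lit peels, a log2 fold change of 1.15 ± 0.21 (SE, edgeR adjusted p = 1.65e-05). At ZT12 it was 152.3 ± 35.1 CPM in shaded peels and 77.8 ± 16.6 CPM in lit peels, a log2 fold change of 0.97 ± 0.21 (SE, edgeR adjusted p = 0.000411). The S15a-like gene was therefore 2.16-fold, 2.22-fold and 1.96-fold higher on the shaded side after 4, 6 and 9 hours of blue light. Among all genes tested, 11.4% were called higher on the shaded side at ZT7, 10% at ZT9 and 7.31% at ZT12. In bulk peels, more of the transcript per cell and more of the cells that express it cannot be told apart.

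At ZT15 the log2 fold change of the S15a-like gene was 0.55 (standard error 0.21, 95% interval 0.14 to 0.96), which missed the threshold with an edgeR adjusted p of 0.0993. With the replicate number as a block, which the phototropism libraries warrant, it was 0.56 and passed (edgeR adjusted p = 0.00013, where 9.05% of all genes were called higher). No call was made at the other times, with or without the block. At ZT5 the blocked value was 0.28 with a 95% interval of 0.06 to 0.50 that excludes 0 (edgeR adjusted p = 0.061). There 13.1% of all genes were called higher with the block. Without the block the 95% intervals of the log2 fold change, shaded over lit, were -0.29 to 0.53 at ZT3, -0.55 to 0.27 at ZT4, -0.16 to 0.67 at ZT5, -0.53 to 0.30 at ZT18 and -0.36 to 0.47 at ZT21. All 5 upper bounds lie below the estimates at ZT7, ZT9 and ZT12. The interval at ZT12, 0.55 to 1.39, still overlaps that at ZT5, so these bounds do not test a change over time.

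**Figure D2:**
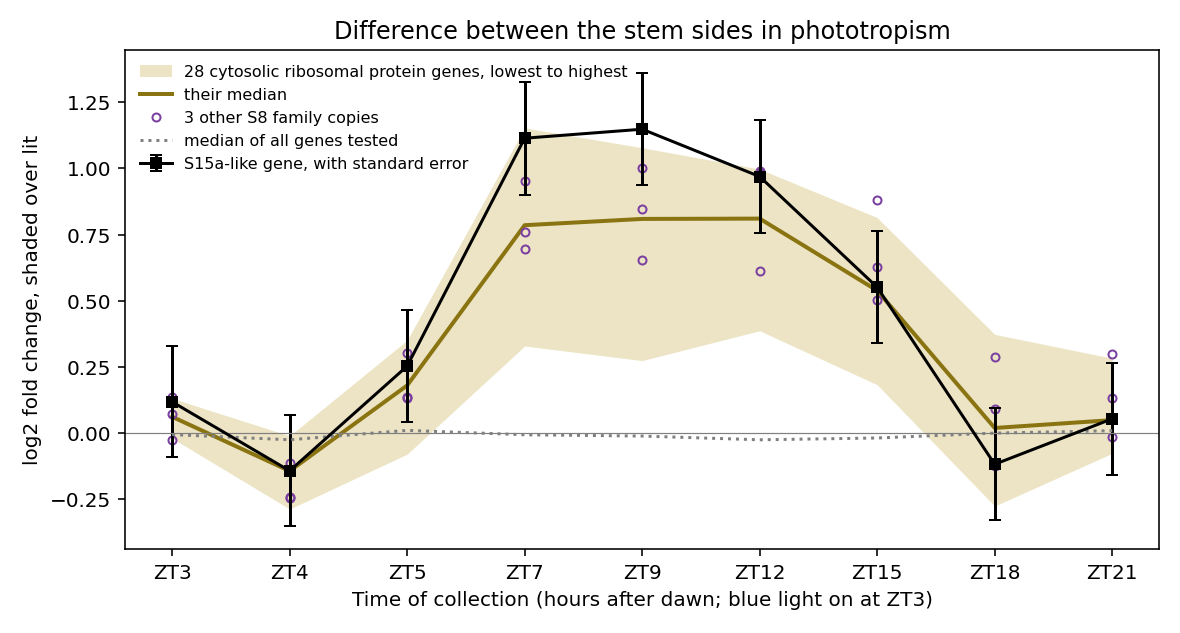
Log2 fold change, shaded over lit, against the time of collection for the S15a-like gene (black squares, standard error), the 3 other S8 family copies (open circles), and the median and range of 28 genes for cytosolic ribosomal proteins, with the median of all genes tested dotted. The S15a-like gene lies between -0.14 and 0.25 up to ZT5 and at 1.11, 1.15 and 0.97 at ZT7, ZT9 and ZT12. It lies at -0.12 at ZT18 and 0.05 at ZT21.

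The difference between the sides could come from a rise on one side, a fall on the other, or both, so each side was set against its own level at ZT3. On the shaded side the S15a-like gene was higher than at ZT3 by a log2 fold change of 0.57 ± 0.21 at ZT9 (SE, edgeR adjusted p = 0.0404) and of 0.65 ± 0.21 at ZT12 (SE, edgeR adjusted p = 0.013), where 10.1% and 13.2% of all genes were called higher. The change at ZT7 was 0.47 and missed the threshold (edgeR adjusted p = 0.143, where 5.92% of all genes were called higher). Both shaded calls were fragile: without replicate 2 the ZT12 value was 0.42 with an edgeR adjusted p of 0.156, and the ZT9 call was lost on leaving out any 1 of replicates 2 to 6 (edgeR adjusted p 0.0552 to 0.151).

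On the lit side no change of the S15a-like gene from ZT3 passed the threshold. The lowest point was ZT7, with a log2 fold change of -0.53 ± 0.21 (SE, edgeR adjusted p = 0.0596, 95% interval -0.94 to -0.12), and ZT9 followed with -0.46 (edgeR adjusted p = 0.0944). Here too single replicate numbers decided the call: without replicate 2 the ZT7 value was -0.64 (edgeR adjusted p = 0.0197) and the ZT9 value -0.59 (edgeR adjusted p = 0.032), and without replicate 6 the ZT7 value was -0.67 (edgeR adjusted p = 0.0357). At ZT4 the lit level stood 0.36 above ZT3 on the log2 scale, with an interval of -0.05 to 0.77. At ZT21 neither side had a called change from ZT3, with log2 fold changes of -0.10 in shaded peels and -0.03 in lit peels.

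The growth of the side difference itself was tested as an interaction. Relative to ZT3 the shaded over lit log2 fold change of the S15a-like gene grew by 1.00 at ZT7 (standard error 0.30, edgeR adjusted p = 0.0232) and by 1.03 at ZT9 (standard error 0.30, edgeR adjusted p = 0.0189), where 3.63% and 2.69% of all genes passed in that direction. With the replicate number as a block the growth was 1.01 at ZT7 (standard error 0.16, edgeR adjusted p = 2.63e-06) and 1.02 at ZT9 (standard error 0.16, edgeR adjusted p = 2.21e-06), where 11.7% and 11.2% of all genes passed. Without the block the ZT7 call was lost on leaving out replicate 1, 4, 5 or 6, and the ZT9 call on leaving out replicate 4, 5 or 6, with log2 values between 0.89 and 1.03 and edgeR adjusted p of 0.0566 to 0.118. At ZT12 the growth was 0.85 and did not pass (edgeR adjusted p = 0.102), but with the replicate number as a block it was 0.84 and did (edgeR adjusted p = 0.000103), where 7.57% of all genes passed.

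**Figure D3:**
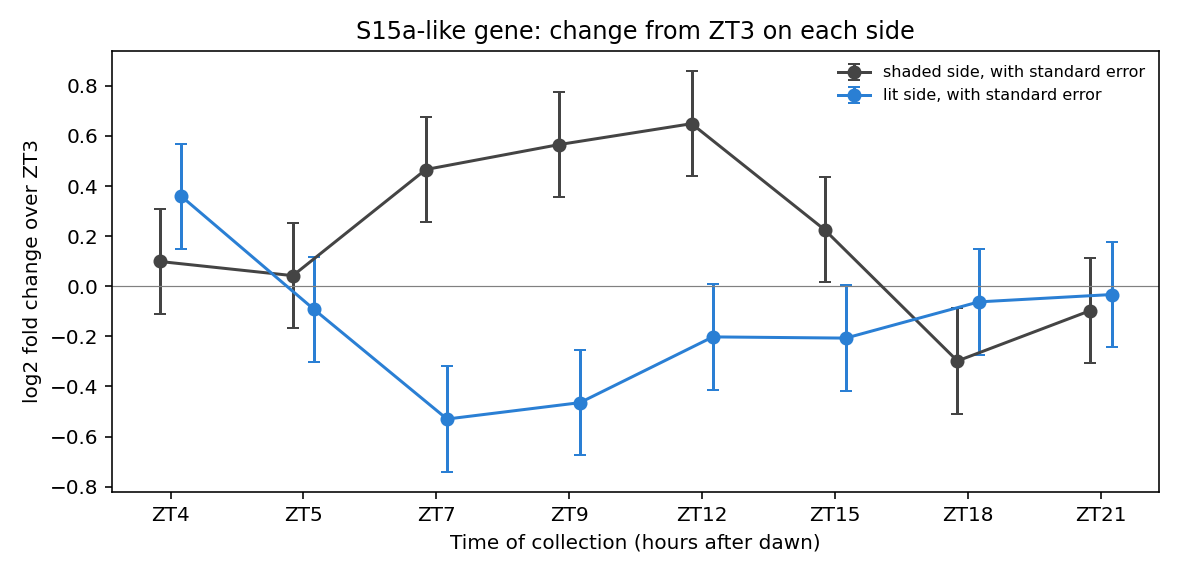
Log2 fold change of the S15a-like gene over its level at ZT3 on the same side, with standard errors, against the time of collection, for the shaded and the lit side of chamber-grown stems. The shaded side reaches 0.65 at ZT12 while the lit side is lowest at ZT7 with -0.53, and both are near 0 at ZT21.

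Ordered by mean log2 CPM, the 18 combinations of side and time fell into the following order. Shaded ZT12, ZT9 and ZT7 stood at the top with 152.3, 143.7 and 134.2 CPM, followed by shaded ZT15 with 113.6 CPM and lit ZT4 with 114.8 CPM. Lit ZT12, ZT15, ZT9 and ZT7 closed the order with 77.8, 77.5, 64.9 and 62.0 CPM, so the highest mean was 2.46 times the lowest. Neighbours in this order are the closest groups by construction, so a test between them says nothing of groups further apart. None of the 17 neighbouring pairs differed beyond its spread: by exact two-sided permutation tests the smallest p was 0.245 (adjusted p = 0.98), 0 pairs passed at an unadjusted 0.05, and the smallest p this design allows is 0.00216.

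The other S8 family copies have the same match. Salmon divides reads that match several transcripts among them, and whether these genes share reads was not examined. All 3 were higher on the shaded side at ZT7 and ZT9. Ha412HOChr11g0504831 averaged 56.7 ± 10.4 CPM in shaded peels and 28.3 ± 6.91 CPM in lit peels at ZT9 (SD, n = 6 each), a log2 fold change of 1.00 (edgeR adjusted p = 0.00252). Ha412HOChr08g0354601 averaged 188.6 ± 22.5 CPM in shaded peels and 105.0 ± 22.3 CPM in lit peels, a log2 fold change of 0.85 (edgeR adjusted p = 0.000136). Ha412HOChr06g0263011 averaged 12.2 ± 2.82 CPM in shaded peels and 7.78 ± 1.73 CPM in lit peels, a log2 fold change of 0.65 (edgeR adjusted p = 0.0262).

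The copies also returned toward equality after ZT12, but not all at the same time. At ZT12 the log2 fold changes were 0.99 for Ha412HOChr11g0504831, 0.98 for Ha412HOChr08g0354601 and 0.61 for Ha412HOChr06g0263011, the last of which missed the threshold (edgeR adjusted p = 0.0527, and 0.000881 with the replicate number as a block, where 14.4% of all genes were called higher). At ZT15 only the 0.88 of Ha412HOChr08g0354601 passed (edgeR adjusted p = 0.000229), while all 3 passed with the block. When the counts of the S15a-like gene and these 3 copies were summed, the side difference at ZT15 was 0.72 and passed (edgeR adjusted p = 0.00966), and the growth of the side difference from ZT3 to ZT7 was 0.78 and did not (edgeR adjusted p = 0.0662).

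Genes for other parts of the translation machinery were taken from the portions at hand of the study's annotation and rhythm tables, which are ordered by identifier and not by result. Of 28 genes for cytosolic ribosomal proteins, 27 were called higher on the shaded side at each of ZT7, ZT9 and ZT12 and 0 were called lower, with median log2 fold changes of 0.79, 0.81 and 0.81, beside medians of all genes between -0.03 and -0.01. Over all genes 11.4%, 10% and 7.31% were called higher at these times. At ZT15 16 of 28 were called higher (median 0.54, where 3.01% of all genes were called higher), and 27 of 28 with the replicate number as a block. At ZT3, ZT4 and ZT5 the edgeR test called 0 of 28 higher, with medians of 0.06, -0.14 and 0.18, where it called 0%, 5.15% and 6.75% of all genes. At ZT18 and ZT21 it called 1 of 28 each, beside 2.2% and 2.19% of all genes. The block called 6 at ZT5, 4 at ZT18 and 2 at ZT21, beside 13.1%, 7.62% and 8.01% of all genes.

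Within this list the S15a-like gene stood near the upper end. Its log2 fold change exceeded that of 27 of the 28 at ZT7, all 28 at ZT9, 27 at ZT12 and 16 at ZT15. The gene with the largest difference at ZT9 among the 28 was the L6 gene Ha412HOChr01g0029001, a protein of the large subunit, with 67.0 ± 12.3 CPM in shaded peels and 31.7 ± 7.57 CPM in lit peels (SD, n = 6 each), a log2 fold change of 1.08 (edgeR adjusted p = 0.000388). The smallest was that of the S3 gene Ha412HOChr00c01240g0865911, a protein of the small subunit, with 15.2 ± 2.79 CPM in shaded peels and 12.5 ± 4.22 CPM in lit peels, a log2 fold change of 0.27 that did not pass (edgeR adjusted p = 0.538).

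The ribosomal protein genes were set against their own level at ZT3 in the same way. On the shaded side 2, 9, 17 and 2 of 28 were called higher at ZT7, ZT9, ZT12 and ZT15, beside 5.92%, 10.1%, 13.2% and 11% of all genes. The medians were 0.40, 0.43, 0.48 and 0.20. The shaded count was near the background at ZT7, below it at ZT15 and above it at ZT9 and ZT12. On the lit side 2, 4, 2 and 5 of 28 were called lower at those times, with medians of -0.33, -0.30, -0.26 and -0.26, beside 10.8%, 13%, 13.8% and 13.3% of all genes, so the lit counts lay below the background at ZT7 and ZT12 and slightly above it at ZT9 and ZT15. The growth of the side difference from ZT3 was called in 13, 12 and 4 of 28 at ZT7, ZT9 and ZT12, beside 3.63%, 2.69% and 0.674% of all genes. With the block it was called in 27, 27 and 28, beside 11.7%, 11.2% and 7.57% of all genes.

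Ribosomal proteins of plastids and mitochondria did not share the pattern as a list. Of 12 such genes, 2 were called higher on the shaded side at ZT7, 1 at ZT9 and 0 at ZT12 and ZT15. Over all genes 11.4%, 10%, 7.31% and 3.01% were called higher at these times, so the organellar counts were near or below the background. Their medians were 0.0006, -0.05, 0.06 and -0.0033. The organellar S18 gene Ha412HOChr16g0783491 had the largest difference at ZT9, with 34.9 ± 5.60 CPM in shaded peels and 24.1 ± 1.83 CPM in lit peels (SD, n = 6 each; log2 fold change 0.54, edgeR adjusted p = 0.000421). The S13/S18 family gene Ha412HOChr01g0005231 lay lowest with -0.36 (edgeR adjusted p = 0.0529). Translation factors, the proteins that start, extend and end peptide chains, fell between the lists: 6, 7, 5 and 3 of 13 tested were called higher at ZT7, ZT9, ZT12 and ZT15, beside the same shares of all genes, with medians of 0.41, 0.41, 0.39 and 0.22. At ZT9 they ran from 1.75 for Ha412HOChr01g0042391 (edgeR adjusted p = 0.00053) to -0.44 for Ha412HOChr07g0314751 (edgeR adjusted p = 0.762), both of the elongation factor Tu family. The latter lay near the floor, with means of 0.35 CPM in shaded peels and 0.47 CPM in lit peels, against 28.7 and 8.5 CPM for the former.

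Some markers of the tissues in a stem peel differed between the sides as well. The summed level of 13 green tissue markers, genes for parts of the photosystems and their antennae, ran from 1815 to 2495 CPM in shaded peels and from 2271 to 2925 CPM in lit peels at ZT9, and from 1385 to 1907 CPM in shaded peels and from 1639 to 2453 CPM in lit peels at ZT12. At ZT9 1 of the 13 was called higher and 4 lower on the shaded side, where 10% of all genes were called higher and 12.2% lower. The antenna gene LHCB1 (Ha412HOChr01g0026141) had a log2 fold change of 0.57 (edgeR adjusted p = 0.0297). The antenna gene LHCB4.1 (Ha412HOChr01g0010761) had one of -1.48 (edgeR adjusted p = 1.57e-14), larger in size than the 1.15 of the S15a-like gene. The 8 tested of 11 epidermis markers, genes of wax and cuticle synthesis and epidermal identity, summed to between 136.9 and 253.3 CPM in shaded peels and between 115.3 and 236.4 CPM in lit peels at ZT9. Of these 8 markers 1 was called higher, near the 10% of all genes. The log2 fold changes of the 8 ran from the CER1 gene Ha412HOChr13g0586621 at 0.77 (edgeR adjusted p = 0.499) to the KCS1 gene Ha412HOChr17g0848131 at -0.29 (edgeR adjusted p = 0.819). Both lay near the floor, with shaded and lit means of 1.285 and 0.72 CPM for this CER1 gene and 0.315 and 0.38 CPM for this KCS1 gene.

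Xylem and phloem markers were present as well, and of 4 vascular markers the edgeR test called none between the sides at ZT7, ZT9, ZT12 or ZT15. Their sum at ZT9 ran from 50.9 to 88.0 CPM in shaded peels and from 42.7 to 110.0 CPM in lit peels, and their log2 fold changes ran from -0.07 for the phloem gene GSL7 (Ha412HOChr17g0815371, edgeR adjusted p = 0.848) to -0.44 for the xylem gene LAC4 (Ha412HOChr01g0010851, edgeR adjusted p = 0.642). No marker of any of the 3 tissues was at 0 in every library. Whether the makeup of the peels had a part in the side difference of the S15a-like gene was not tested.

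In the field the S15a-like gene was highest on the west side in the morning and on the east side around the middle of the day. At ZT4 the west libraries held 108.7, 113.0 and 103.6 CPM on the first day and 110.7, 108.0 and 107.5 CPM on the second, and the east libraries held 97.5, 89.5 and 83.4 CPM on the first day and 97.3, 96.8 and 85.5 CPM on the second. At ZT8 the west libraries held 95.3, 91.0 and 88.7 CPM on the first day and 93.8, 77.5 and 83.0 CPM on the second, and the east libraries held 122.5, 115.5 and 128.6 CPM on the first day and 124.7, 97.3 and 88.3 CPM on the second. At ZT4 every west library lay above every east library, which held for 0.283% of the 34315 genes tested. At ZT8 the east library was higher in 6 of 6 same-numbered pairs, while the ranges overlapped through the second day.

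The levels at the other times of day lay lower. At ZT12 the lowest, median and highest values were 50.01, 71.0 and 78.6 CPM on the west side and 72.9, 81.2 and 106.9 CPM on the east side, with the east library higher in 6 of 6 pairs. At ZT16 they were 63.7, 80.3 and 92.6 CPM on the west side and 64.8, 69.9 and 88.4 CPM on the east side. At ZT0 they were 60.6, 78.9 and 96.2 CPM on the west side and 44.8, 60.3 and 71.9 CPM on the east side, with the west library higher in 6 of 6 pairs. The order of the sides thus reversed between ZT4 and ZT8 and turned back during the night.

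At ZT20 the library that stood apart weighed on the values. The west libraries held 76.7, 84.2 and 74.0 CPM on the first day and 92.6, 103.4 and 27.9 CPM on the second, the last being replicate 3 at ZT44 with the lowest level of the gene in the field. The east libraries held 50.9, 50.4 and 67.2 CPM on the first day and 79.5, 57.5 and 51.1 CPM on the second. With that library the log2 fold change, west over east, was 0.37, and without it 0.53.

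**Figure D4:**
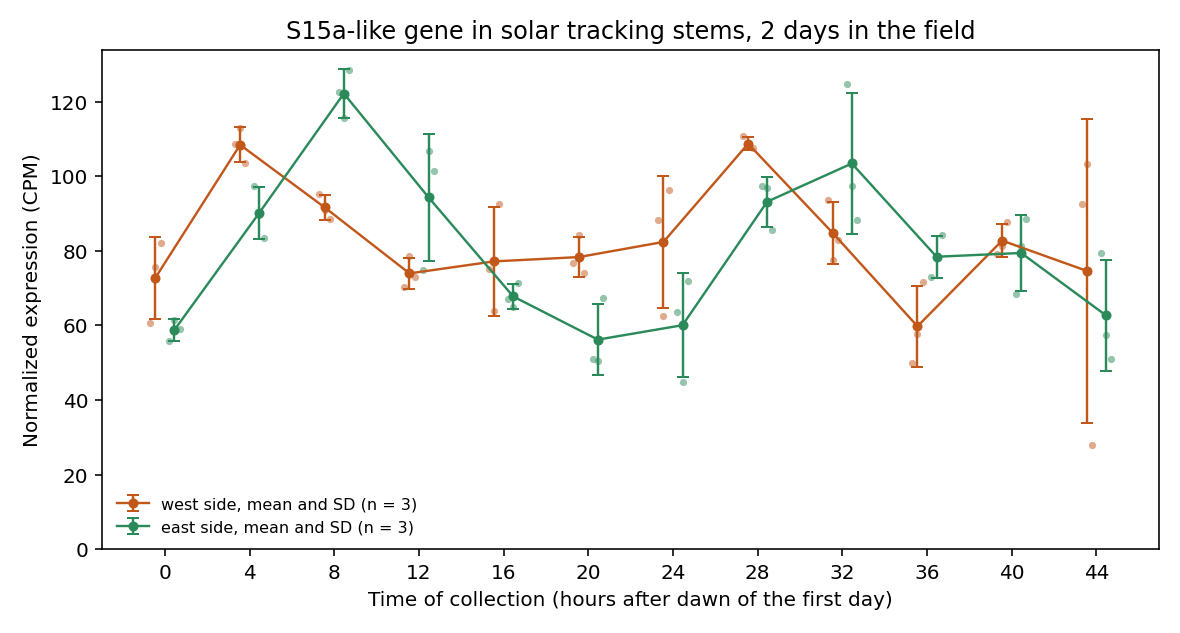
Level of the S15a-like gene (TMM-scaled CPM, linear axis from 0) in each of the 72 field libraries against hours after dawn of the first day, west side left of east side, with the mean and SD of 3 libraries per side and sampling. West means are highest at ZT4 and ZT28, east means at ZT8 and ZT32, and 1 west library at ZT44 lies at 27.9 CPM.

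Over both days the mean levels on the west side at ZT0, ZT4, ZT8, ZT12, ZT16 and ZT20 were 77.6 ± 14.2, 108.6 ± 3.18, 88.2 ± 6.77, 66.9 ± 10.7, 80.0 ± 10.1 and 76.5 ± 26.1 CPM (SD, n = 6 each). On the east side they were 59.4 ± 8.99, 91.7 ± 6.36, 112.8 ± 16.3, 86.4 ± 14.4, 73.6 ± 9.28 and 59.4 ± 11.8 CPM. The highest mean was 1.62 times the lowest on the west side and 1.90 times on the east side, and the ZT20 mean on the west carried the largest SD of the experiment. As a description, the log2 fold changes, west over east, were 0.39, 0.24, -0.36, -0.37, 0.12 and 0.37 at these 6 times, each with a standard error between 0.14 and 0.15.

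The cytosolic ribosomal protein genes leaned the same way at each time of day, and how many passed depended on the block. West over east, their median log2 fold changes were 0.17, 0.18, -0.20, -0.25, 0.06 and 0.33 from ZT0 to ZT20, and 28, 27, 1, 0, 21 and 28 of 28 were above 0. The edgeR test called 0 of 28 higher at ZT0, ZT4 and ZT16 (0.0321%, 0.0233% and 3.43% of all genes) and 0 lower at ZT8 (0.866% of all genes). It called 2 lower on the west side at ZT12 (where 1.15% of all genes were called lower) and 13 higher on the west side at ZT20 (where 2.63% of all genes were called higher). The study peeled both sides of 6 plants at each sampling, but neither the labels nor the methods say that a replicate number marks the same plants on both sides. With the replicate number as a block the edgeR test called 3, 4, 2 and 23 of 28 higher at ZT0, ZT4, ZT16 and ZT20, beside 0.787%, 0.819%, 6.31% and 5.48% of all genes, so the count at ZT16 was near the background. It called 11 and 16 lower at ZT8 and ZT12, beside 2.69% and 4.82% of all genes. Without the block the ZT12 calls were lost without any 1 replicate number, and the ZT20 count was 0 without replicate 2, 6 without replicate 3 and 13 without only the west library of replicate 3 at ZT44. The S15a-like gene lay above all 28 at ZT0, below all 28 at ZT12 and below 27 at ZT8. At ZT4, ZT16 and ZT20, 4, 8 and 10 of the 28 lay above it. The study singled it out for its phase in these libraries, so these positions are a description. The 3 other S8 family copies, which the study also listed for their phases, were above 0 at ZT0, ZT4 and ZT20 and below 0 at ZT8 and ZT12.

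A 24-hour cosine fitted to each side summarized the daily course, with the acrophase as the fitted time of the peak and the mesor as the fitted mean level. For the S15a-like gene the acrophase on the west side fell 4.08 ± 1.103 hours after dawn (SE) with an amplitude of 13.3 CPM around a mesor of 83.0 CPM, and on the east side 8.39 ± 0.45 hours after dawn (SE) with an amplitude of 25.4 CPM around a mesor of 80.6 CPM. The west side thus peaked 4.31 hours earlier (SE 1.19) with a shallower curve, of 16.0% of the mesor on the west side and 31.6% on the east side. The curve accounted for 26.7% of the variance on the west side and 68.8% on the east side, so the west acrophase is the less certain of the pair. The west side was 3.22 hours earlier on the first day alone, 5.22 hours earlier on the second, and 5.10 hours earlier without the west library of replicate 3 at ZT44. When a 12-hour cosine was added to the curve, the peak came 4.75 hours after dawn on the west side and 7.35 hours after dawn on the east side, a difference of 2.60 hours.

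The other ribosomal protein genes peaked earlier on the west side too. Among the 28, 19 were rhythmic on both sides, beside 62.3% of all genes. All 19 had the earlier acrophase on the west side, as did 11826 of the 21366 genes rhythmic on both sides. The differences of the 19, west minus east, were -8.06 to -0.39 hours with a median of -4.18 hours. For 12 of the 19 the lead was over 3 hours, which held for 4.76% of the 21366 genes rhythmic on both sides, and over all of these genes the median difference, west minus east, was -0.14 hours. The S3 gene Ha412HOChr00c01240g0865911 and the L6 gene Ha412HOChr01g0029001, at the ends of the list in the chamber, had differences of -0.39 and -4.85 hours. The other S8 family copies led by 5.85 hours (Ha412HOChr06g0263011), 3.62 hours (Ha412HOChr11g0504831) and 3.16 hours (Ha412HOChr08g0354601), which is how they came to be listed.

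The other lists were fitted in the same way. The 3 organellar ribosomal protein genes rhythmic on both sides had differences, west minus east, of -1.94 to -0.01 hours, and the 10 rhythmic translation factors had a median of -0.74 hours. Of these 10, 7 were earlier on the west side, beside 11826 of the 21366 genes rhythmic on both sides. For 3 of the 10 the lead was over 3 hours, a larger share than the 4.76% of all genes. All 13 green tissue markers were rhythmic on both sides, with a median difference of -0.02 hours, and 7 epidermis markers and 3 vascular markers had medians of -0.26 and 1.34 hours. None of these tissue markers differed by more than 3 hours.

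**Figure D5:**
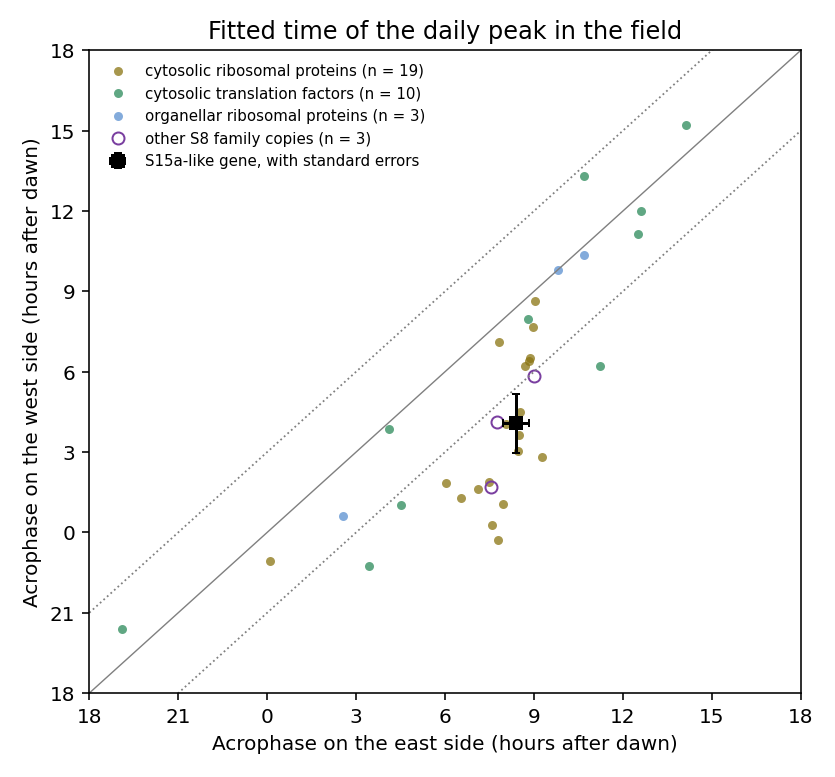
Fitted time of the daily peak on the west side against that on the east side, in hours after dawn, for genes rhythmic on both sides; the solid line marks equal times and the dotted lines a difference of 3 hours. The S15a-like gene lies at 4.08 hours on the west side and 8.39 hours on the east side, and all 19 cytosolic ribosomal protein genes lie below the line of equal times.

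The study's choice of the gene did not use the contrast of the days, so it was tested. The second day differed from the first by a log2 fold change of -0.02 averaged over sides and times (standard error 0.06, 95% interval -0.14 to 0.10, edgeR adjusted p = 0.887), while 19.4% of all genes changed between the days. The change of the west over east difference from the first to the second day ran from -0.21 at ZT20 to 0.16 at ZT0, with edgeR adjusted p of 0.965 or more at all 6 times, and the widest of the intervals reached from -0.79 to 0.37. Of all genes tested, 2 (0.00583%) passed this test at ZT12, 1 (0.00291%) at ZT20 and 0 at the other times.

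Genes with the most similar course were looked for across all libraries, as a description over points that share their sequencing depth and scaling. Over the 108 chamber libraries the 5 highest Pearson correlations with the S15a-like gene were those of Ha412HOChr14g0690271 (L15 of the large subunit, r = 0.98), Ha412HOChr10g0449821 (RPL16A of the large subunit, r = 0.97), Ha412HOChr16g0785541 (RPS13A of the small subunit, r = 0.97), Ha412HOChr16g0787581 (listed in the study under translational elongation, r = 0.97) and Ha412HOChr10g0464171 (L7 of the large subunit, r = 0.97). Over the 72 field libraries they were Ha412HOChr01g0033631 (L12 of the large subunit, r = 0.91), Ha412HOChr11g0533061 (PGY2, L9 of the large subunit, r = 0.91), Ha412HOChr13g0600561 (S23 of the small subunit, r = 0.89), Ha412HOChr11g0510361 (L18 of the large subunit, r = 0.89) and Ha412HOChr15g0703941 (S7 of the small subunit, r = 0.88). Of these 10 genes, 9 are annotated as ribosomal proteins, and their correlations in the other experiment ranged from 0.64 to 0.97.

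The other S8 family copies were not the closest genes. Ha412HOChr11g0504831, Ha412HOChr08g0354601 and Ha412HOChr06g0263011 had r = 0.95, 0.91 and 0.85 over the chamber libraries, at ranks 76, 198 and 329 of 32643 genes, and r = 0.78, 0.86 and 0.72 over the field libraries, at ranks 95, 15 and 228 of 34314. By list, the median correlation with the S15a-like gene was 0.93 in the chamber and 0.70 in the field for the 28 cytosolic ribosomal protein genes, against 0.08 and 0.14 for the 12 organellar ones and -0.03 and -0.01 for all genes. Green tissue markers had a median of -0.08 in the chamber and 0.48 in the field.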

How the data were processed

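RNA was sequenced from pooled peels of 2 plants as single-end reads, and the authors quantified it with Salmon 1.4.0 against a transcriptome of the Ha412HOv2.0 genome extracted with Cufflinks 2.2.1. The authors deposited expected counts per gene (46.9% of values above 0 are whole in the chamber table and 44.6% in the field table) and a normalized signal, CPM after edgeR TMM scaling, for 32389 and 34071 genes. The expected counts were rounded here. Genes that reached 10 counts in 6 chamber or 3 field libraries (32644 and 34315) were tested with the edgeR 4.0.16 quasi-likelihood test (R 4.3.3, TMM), with 1 group per side and time, and Benjamini-Hochberg adjustment over all genes tested at 0.05. CPM was recomputed from these counts and differed from the deposited CPM of the S15a-like gene by at most 3.16% in the chamber and 1.23% in the field. The cosine curves were fitted by least squares to linear CPM. Libraries of the same side and time are replicates of separate pooled plants, as the study's methods state. The methods do not say that libraries of opposite sides come from separate plants, and in the field both sides of the same plants were peeled.

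Same-numbered shaded and lit libraries deviated together in 54 of 54 pairs (correlation of deviations from group means 0.24 or more, median 0.43, against -0.20 for other numbers), so the replicate number was taken as a pairing in the chamber and blocked values are given where they change a call or move a count of calls by over 1.5 times. The main design has no block, as in the study. The S15a-like gene and the gene lists were chosen with earlier results of these data known. Genes named are the S15a-like gene, the genes with the same Arabidopsis match in the study's phase list, the list members with the highest and lowest log2 fold change at ZT9, and the 5 genes most correlated with it in each experiment. Alternatives were DESeq2 1.42.0, limma 3.58.1 on log2 CPM with a pseudocount of 1 or 0.5, other scaling, no filter, summed S8 family counts, the deposited CPM, single days, another curve and each replicate number left out. Counting errors cover counting only, since reads carried no molecular identifiers. The scripts were tested on simulated data.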

Additional observations from a re-analysis of the deposited data

Results flagged for a closer look

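The difference between the shaded and the lit side of the S15a-like gene was not the same at all times in the chamber: relative to ZT3 the log2 fold change, shaded over lit, was larger by 1.00 at ZT7 (edgeR interaction test, adjusted p = 0.0232) and by 1.03 at ZT9 (adjusted p = 0.0189). The shaded library was higher in 6 of 6 same-numbered pairs at both times, against 4 of 6 at ZT3. None of the 30 groups of 6 libraries held a value of this gene far from the others by Dixon's test.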

How the results depend on the processing

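Of 46 log2 differences of the S15a-like gene, the 7 past the threshold kept their sign under every alternative run, while 15 others, with values from -0.21 to 0.23, changed sign under at least 1 alternative and passed with neither sign. The calls of the S15a-like gene that changed side of the threshold were those near it. Its lit change from ZT3 to ZT7 passed with DESeq2 (-0.54) and ran from -0.67 to -0.40 with 1 replicate number left out, and its lit change to ZT9 from -0.59 to -0.38. Its shaded change to ZT9 was 0.57 with no filter and 0.50 with the S8 family counts summed, neither passing, and ran from 0.46 to 0.70 with 1 number left out, as did the change to ZT12 from 0.42 to 0.80. The side difference at ZT15 passed with the replicate block (0.56) and summed counts (0.72). Its growth from ZT3 was 0.78 at ZT7 with summed counts and did not pass, ran from 0.89 to 1.09 at ZT7 and from 0.96 to 1.13 at ZT9 with 1 number left out, and passed at ZT12 with the block (0.84). The block pairs the sides within a time and so was run on the side differences, their growth and their change between the days, where it changed no other call, and not on changes from ZT3 within a side or on the days. The cause of these changes was not tested.

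Of 28 cytosolic ribosomal protein genes, the replicate block called 6 higher on the shaded side at ZT5, 27 at ZT15, 4 at ZT18 and 2 at ZT21, beside 13.1%, 9.05%, 7.62% and 8.01% of all genes. Without the block, leaving out 1 number gave 7 to 16 at ZT15 and 0 to 1 at ZT21. Over all genes, those called higher on the shaded side at ZT7 numbered 6061 with the block and 3735 without it.

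In the field, same-numbered sides deviated together with a correlation over 0.1 in 27 of 36 pairs (median 0.17). In the chamber this held in 54 of 54. The number was taken as a pairing only in the chamber, although no source states it for either experiment. Each of the 36 field pairs still correlated best with its own number. The field counts without the block may therefore leave out a pairing. With the replicate block, west over east, 3, 4, 2 and 23 of 28 were called higher at ZT0, ZT4, ZT16 and ZT20, beside 0.787%, 0.819%, 6.31% and 5.48% of all genes. It called 11 and 16 lower at ZT8 and ZT12, beside 2.69% and 4.82% of all genes. DESeq2 called 1, 1 and 21 higher at ZT0, ZT16 and ZT20, beside 0.108%, 4% and 3.59% of all genes, and 3 and 8 lower at ZT8 and ZT12, beside 1.31% and 1.91%. With 1 number left out the counts were 0 lower at ZT12, 0 to 1 higher at ZT16 and 0 to 10 higher at ZT20, and 13 without the west library of replicate 3 at ZT44 alone, an alternative chosen after seeing the data. In hours after dawn, the west acrophase was 5.24 on the first day alone, and the east acrophase was 7.35 with the added 12-hour cosine (difference -2.60 hours) and 8.08 to 8.93 with 1 number left out.

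In the chamber the counting error was small beside the spread between pools in every group, so the number of pools limits those values more than depth does. In the field the median spread of 14.8% was above the counting error of 2.05 to 7.99%. The smallest field spread, 2.93% on the west side at ZT4, lay within that range. Salmon divides reads that match several transcripts among them. Whether this blurs the S15a-like gene with the other S8 family copies was not examined.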
